A study of Mus musculus with 7 samples.

Results

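Levels of 8 genes of the Ms4a family (Ms4a1, Ms4a4a, Ms4a4b, Ms4a4c, Ms4a6b, Ms4a6c, Ms4a6d and Ms4a7) were compared between normocapnic and hypercapnic mice, out of 23930 genes in the deposited table. The genes were selected by name, with their values in this same contrast already known, so their differences between the groups are given as descriptions and not as tests. The study examined how long exposure to raised carbon dioxide changes the muscle stem cells, called satellite cells, that rebuild muscle after injury. All animals were littermates with an inducible Pax7-GFP reporter, were held in normocapnia (NC) or hypercapnia (HC) for 4 weeks from 12 weeks of age, and were collected at 16 weeks of age. Their background is C57/B6 in the growth protocol, while the suffix after C57BL in the genotype label differs for every library. All were induced with tamoxifen, by the study's methods in chow over the first 2 weeks of the exposure. Per the study's methods, NC was room air and HC was a chamber with 10% CO2, both sexes were used, and the muscle had been injured with cardiotoxin 3 days before collection; the labels name neither the injury nor that interval, and the title of the deposited table carries 40 hours. In this line a Cre recombinase expressed from Pax7 switches on a green fluorescent protein that is kept by every descendant of a labelled cell. Mononuclear cells were freed from the hind-leg muscles of both legs, Pax7-GFP+ cells were sorted, and their RNA was measured in bulk in 3 NC libraries (NC1 to NC3) and 4 HC libraries (HC1 to HC4). The labels do not say whether each library came from a separate animal or from pooled animals, so any p-value here measures the spread between these libraries.

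MS4A proteins cross the membrane several times and sit at the surface or in endosomes of mainly blood-derived cells. Ms4a1 encodes CD20, the classical surface marker of B cells, and Ms4a2, outside the 8 genes, encodes the beta chain of the high-affinity IgE receptor of mast cells and basophils. Ms4a4a, Ms4a6c, Ms4a6d and Ms4a7 are known from monocytes, macrophages and microglia, where MS4A4A partners with the fungal receptor Dectin-1, and Ms4a4b is best known from T cells. In injured muscle, monocyte-derived macrophages surround the dividing satellite cells. In RefSeq (assembly GRCm38.p6) the family lies in 1 cluster on chromosome 19. Its order there runs Ms4a1, Ms4a5, Ms4a14, Ms4a7, Ms4a4a, Ms4a4c, Ms4a4b, Ms4a6c, the gene model Gm8369, Ms4a6b, Ms4a4d, Ms4a6d, Ms4a2 and Ms4a3, with further family genes before Ms4a1.

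Some members of the cluster are close copies of one another, which bears on how far reads of an amplicon panel can be assigned to 1 of them. In the reference transcripts (GENCODE vM21) the longest open reading frames of Ms4a4b and Ms4a4c were both 681 bases long and matched at 91.8% of positions, with a longest identical stretch of 127 bases. Ms4a6b matched Ms4a6d at 80.5% and Ms4a6c at 75.6%, whereas Ms4a4a matched no other member above 63.0%, Ms4a7 none above 56.8% and Ms4a1 none above 53.7%. Values of Ms4a4b against Ms4a4c, and of the 3 Ms4a6 genes against each other, are therefore uncertain to the extent that their amplicons share sequence, which was not tested because the amplicon sequences were not used here.

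The promoters show the same kinship. RefSeq's window of 250 bases before to 50 after the start site was at hand for 6 of the 8 members, all but Ms4a1 and Ms4a6d. The copies Ms4a4b and Ms4a4c matched at 76.7% of the 300 bases, and Ms4a6b and Ms4a6c at 64.0%, with an identical stretch of 48 bases, while the other pairs matched at 52.0% to 57.7%. A pair of short motifs, chosen after these sequences had been seen, were searched on both strands: GGAAGT, a core bound by ETS factors such as PU.1 of myeloid cells, and GAAANNGAA, a core of interferon-response elements. The letters GGAAGT were found at 5 of the 6 members (all but Ms4a4a), against 23.8% of 32851 mouse promoters, and GAAANNGAA at 3 (Ms4a6b, Ms4a6c and Ms4a7), against 8.56%. A match is a string of letters and not a shown binding site. Members are counted over any window of the gene and the background over single windows, and the copies share letters. With motifs chosen this way, nothing is read from these shares. Outside the members, GGAAGT lay in windows of Ms4a3, Ms4a4d, Tmem176a and Tmem176b. It lay in none of Ms4a2, Ms4a5, Ms4a8a, Ms4a10, Ms4a13, Ms4a14, Ms4a15 and Ms4a18. Among these genes outside the members, only Ms4a18 held GAAANNGAA. The windows below are of the copies and of Ms4a7, in GRCm38.p6, with motif matches in capitals (or the reverse complement of a motif where it lies on the other strand, as ACTTCC does for GGAAGT). None of the matches overlapped.
Ms4a4c, chr19:11407411-11407710, plus strand: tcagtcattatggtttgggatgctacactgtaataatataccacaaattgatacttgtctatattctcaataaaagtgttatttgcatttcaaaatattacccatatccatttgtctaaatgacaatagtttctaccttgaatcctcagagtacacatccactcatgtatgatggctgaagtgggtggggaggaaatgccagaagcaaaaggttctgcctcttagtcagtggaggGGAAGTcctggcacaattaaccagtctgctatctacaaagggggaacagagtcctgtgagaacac
Ms4a4b, chr19:11443308-11443607, plus strand: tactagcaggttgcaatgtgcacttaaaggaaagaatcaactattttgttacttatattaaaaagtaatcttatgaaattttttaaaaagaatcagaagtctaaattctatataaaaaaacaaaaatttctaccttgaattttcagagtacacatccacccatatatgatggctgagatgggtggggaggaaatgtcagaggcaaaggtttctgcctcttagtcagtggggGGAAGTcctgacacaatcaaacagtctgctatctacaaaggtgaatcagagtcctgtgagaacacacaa
Ms4a6c, chr19:11469118-11469417, plus strand: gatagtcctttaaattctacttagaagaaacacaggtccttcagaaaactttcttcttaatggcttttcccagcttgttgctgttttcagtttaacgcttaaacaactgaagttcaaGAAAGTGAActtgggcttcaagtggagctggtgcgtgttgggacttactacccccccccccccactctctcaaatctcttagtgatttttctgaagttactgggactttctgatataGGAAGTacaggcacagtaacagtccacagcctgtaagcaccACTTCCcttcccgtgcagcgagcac
Ms4a6b, chr19:11518309-11518608, plus strand: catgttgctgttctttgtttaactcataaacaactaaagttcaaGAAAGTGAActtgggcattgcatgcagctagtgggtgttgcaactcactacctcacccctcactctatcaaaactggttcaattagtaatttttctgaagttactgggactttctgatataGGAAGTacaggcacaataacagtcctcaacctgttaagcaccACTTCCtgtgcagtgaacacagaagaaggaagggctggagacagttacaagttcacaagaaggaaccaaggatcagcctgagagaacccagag
Ms4a7, chr19:11336097-11336396, minus strand: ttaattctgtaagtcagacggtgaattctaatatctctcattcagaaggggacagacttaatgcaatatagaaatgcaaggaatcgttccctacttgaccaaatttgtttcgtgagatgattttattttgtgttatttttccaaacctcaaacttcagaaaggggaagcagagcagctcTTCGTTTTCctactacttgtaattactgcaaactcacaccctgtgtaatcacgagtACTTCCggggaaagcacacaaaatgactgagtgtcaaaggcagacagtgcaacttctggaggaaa
Counting the start site as position 0, the GGAAGT core began at -15 in Ms4a4c, at -19 in Ms4a4b and at -16 in Ms4a6c, and its reverse at -15 in Ms4a7. Ms4a6b carried GGAAGT at -85 and its reverse at -43, and Ms4a6c likewise had a reverse match, at 25. GAAANNGAA began at -133 in Ms4a6c and at -206 in Ms4a6b, inside the same surrounding letters, and in reverse at -71 in Ms4a7. Ms4a7 has a further start site in the table, whose window holds GAAANNGAA at -148 and no GGAAGT.

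Values are RPM, in which each library's reads on the panel are scaled to the same sum. Library totals recovered from them ran from 14527445 to 23388710 reads, so that 1 read was worth 0.0428 to 0.0688 RPM and 3 reads, taken as the floor, 0.128 to 0.207 RPM. NC3 stood apart, with 16.6% of its reads in its 10 most abundant genes against 8.36% to 12.1% in the others. The HC libraries formed 2 pairs, HC1 with HC2 and HC3 with HC4, whose chi-square per degree of freedom over genes was 24.6 and 27.3, against 104.6 or more for every other pair of libraries. Pax7, the gene that defines satellite cells, ranged from 4.34 to 268 RPM, whereas the macrophage gene Lyz2 ranged from 8354 to 29108 RPM in the same sorted cells, so macrophage transcripts were present in every library beside the gene of the labelled cell type. In bulk RNA, fewer cells of a type and less RNA per cell cannot be told apart. Each gene was read through its own amplicon, so levels of different genes, Pax7 and Lyz2 included, are not on 1 scale. Comparisons are made between libraries, and values below are levels in RPM unless called differences.

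Ms4a4c, Ms4a7 and Ms4a6b were the members whose HC libraries all lay above all NC libraries. Ms4a4c was at 48.3, 73.1 and 24.8 RPM in NC1 to NC3 and at 179, 204, 175 and 119 RPM in HC1 to HC4. The lowest HC library was thus 1.63 times the highest NC library, and NC3 was the lowest of all 7. The group means were 48.7 ± 24.2 RPM (SD, n = 3) and 169 ± 35.9 RPM (SD, n = 4), a ratio of 3.47, and the difference on the log2(RPM + 1) scale was 1.88 (SE 0.40).

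Ms4a7, a gene of tissue macrophages and microglia, was at 35.9, 25.1 and 38.0 RPM in NC1 to NC3. In HC it reached 135 and 162 RPM in HC1 and HC2 but 64.5 and 57.8 RPM in HC3 and HC4. Every HC library was above every NC library, and the HC libraries fell into a high and a low pair whose means differed 2.43 times. The means were 33.0 ± 6.92 RPM (SD, n = 3) in NC and 105 ± 51.6 RPM (SD, n = 4) in HC, a log2 difference of 1.52 (SE 0.44). With median-of-ratios scaling this difference was 1.38 and without NC2 it was 1.34, and in both settings limma no longer called Ms4a7.

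Ms4a6b was at 33.9, 62.8 and 68.1 RPM in NC1 to NC3 and at 140, 119, 72.2 and 69.3 RPM in HC1 to HC4. The groups were apart only narrowly, since NC3 was just below HC4 and HC3. HC averaged 100 ± 35.1 RPM (SD, n = 4) against 54.9 ± 18.4 RPM (SD, n = 3) in NC. The log2 difference was 0.85 (SE 0.38), and 0.54 without NC1.

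**Figure D1:**
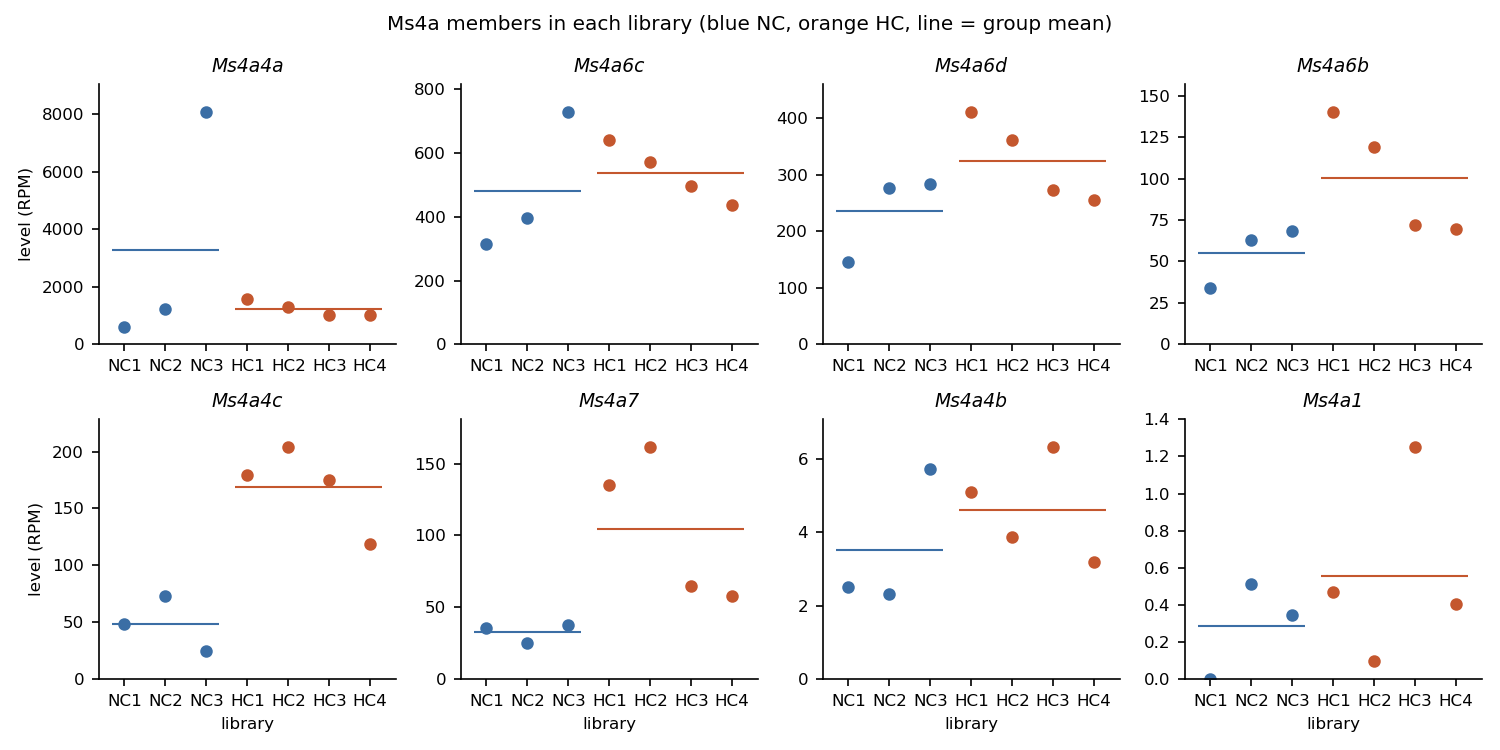
RPM (y axis, linear from 0, own scale per gene) of the 8 Ms4a members in each of the 3 NC libraries (blue) and 4 HC libraries (orange), with a line at each group mean. All HC points of Ms4a4c, Ms4a7 and Ms4a6b lie above their NC points, and Ms4a4a has a single high point at 8065 RPM in NC3.

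Ms4a4a, a surface protein of alternatively activated macrophages, was the most unequal member. It was at 587, 1212 and 8065 RPM in NC1 to NC3 and at 1578, 1308, 1015 and 1007 RPM in HC1 to HC4. NC3 was 5.11 times the next highest library, and NC1 was the lowest, so the HC libraries lay inside the NC range and within a far narrower span. It was the only member with a mean log2 difference below 0, at -0.57 (SE 0.91), and without NC3 the difference was 0.51. On recovered reads it was -1.84 with edgeR and -1.91 with DESeq2, which called it lower.

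Ms4a6c and Ms4a6d, both genes of the monocyte and macrophage lineage, overlapped between the groups. Ms4a6c was at 316, 396 and 728 RPM in NC1 to NC3 and at 640, 571, 498 and 438 RPM in HC1 to HC4, with NC3 again the highest library. Its log2 difference was 0.24 (SE 0.32), and 0.59 without NC3. Ms4a6d was at 146, 277 and 283 RPM in NC and at 410, 361, 273 and 255 RPM in HC1 to HC4, so that HC1 and HC2 lay above all NC libraries and HC3 and HC4 did not. The log2 difference of Ms4a6d was 0.50 (SE 0.31), and 0.19 without NC1.

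Of the members known from lymphocytes, Ms4a4b was low but above the floor in every library and Ms4a1 was near it. Ms4a4b rested on 47 to 119 reads and was at 2.50, 2.31 and 5.71 RPM in NC and at 5.09, 3.87, 6.31 and 3.18 RPM in HC1 to HC4, with overlapping groups and a log2 difference of 0.36 (SE 0.33), which was 0.69 without NC3. Its close copy Ms4a4c had more reads in every library, so a small share of misassigned reads would weigh on Ms4a4b, and this was not tested. Ms4a1 rested on 0, 12 and 5 reads in NC1 to NC3 and on 11, 2, 20 and 6 reads in HC1 to HC4, at most 1.25 RPM. NC1 and HC2 were below the floor of 3 reads, and no difference in Ms4a1 was detectable at this depth.

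Across the 8 members, 7 averaged 1 RPM or more, and the log2 difference had a median of 0.43. It was above 0 in 7 and below 0 in 1, although Ms4a6c turned to -0.08 with edgeR and -0.13 with DESeq2, and to -0.02 without NC1. Over all 23930 genes the median was 0.02. Among the 12504 genes averaging 1 RPM or more it was 0.16 as deposited, 0.04 after median-of-ratios scaling and -0.01 in the edgeR fit. With the study's thresholds (limma, unadjusted p under 0.05 and a fold above 1.5), Ms4a4c and Ms4a7 were called higher, beside 1.43% of all genes called higher, 1.14% called lower, and 2.66% called higher among genes averaging 1 RPM or more. Groups without overlap and HC higher were seen in 3 members and in 4.09% of genes averaging 1 RPM or more, and 3.63% had HC lower. Because the members were selected with this contrast known, these shares are printed for scale and nothing is read from them. After Benjamini-Hochberg adjustment limma called 0 of 23930 genes, against 1114 at an unadjusted p under 0.05, and on recovered reads edgeR called 0 and DESeq2 29.

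The family genes outside the 8 were examined beside them. Of these 12 genes (10 further Ms4a genes of the cluster, and the related Tmem176a and Tmem176b, which lie on chromosome 6), Ms4a3, Ms4a5 and Ms4a13 were at 0 in all libraries, and Ms4a10, Ms4a15 and Ms4a18 were at 0.271 RPM or less. Of the other 6, which average 1 RPM or more, limma called 1 higher and none lower, beside 2.66% of genes of that level called higher. That gene was Ms4a14, the neighbour of Ms4a7, at 16.3, 12.4 and 6.54 RPM in NC1 to NC3 and at 79.2, 70.1, 26.4 and 32.7 RPM in HC1 to HC4. Its groups were apart, its log2 difference was 1.99 (SE 0.52), and its limma p of 0.00997 became 0.828 after adjustment over all genes. The profile of Ms4a14 resembled that of Ms4a7, with HC1 and HC2 averaging 2.53 times HC3 and HC4.

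Ms4a8a, a gene described in alternatively activated macrophages, was at 36.3, 117 and 227 RPM in NC1 to NC3 and between 71.3 and 79.8 RPM in HC. As with Ms4a4a, NC1 was the lowest and NC3 the highest of all libraries and HC lay inside the NC range (log2 difference -0.40, SE 0.61). Without NC1 it was called lower by limma, at -1.12. Ms4a2, of the IgE receptor, was at 6.76 to 9.32 RPM in NC, at 4.24 and 3.22 RPM in HC1 and HC2, and at 14.4 and 10.1 RPM in HC3 and HC4. Ms4a4d was at 0.688 to 3.21 RPM in NC, at 0.899 and 1.71 RPM in HC1 and HC2 and at 7.00 and 8.53 RPM in HC3 and HC4. In both of these genes the HC pairs were in the opposite order from that in Ms4a7. Tmem176a and Tmem176b, ion channel-like relatives expressed in dendritic cells and macrophages, were at 2.82 to 63.2 and 78.8 to 384 RPM in NC and at 18.6 to 47.6 and 98.4 to 305 RPM in HC, again with HC3 and HC4 above HC1 and HC2.

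**Figure D2:**
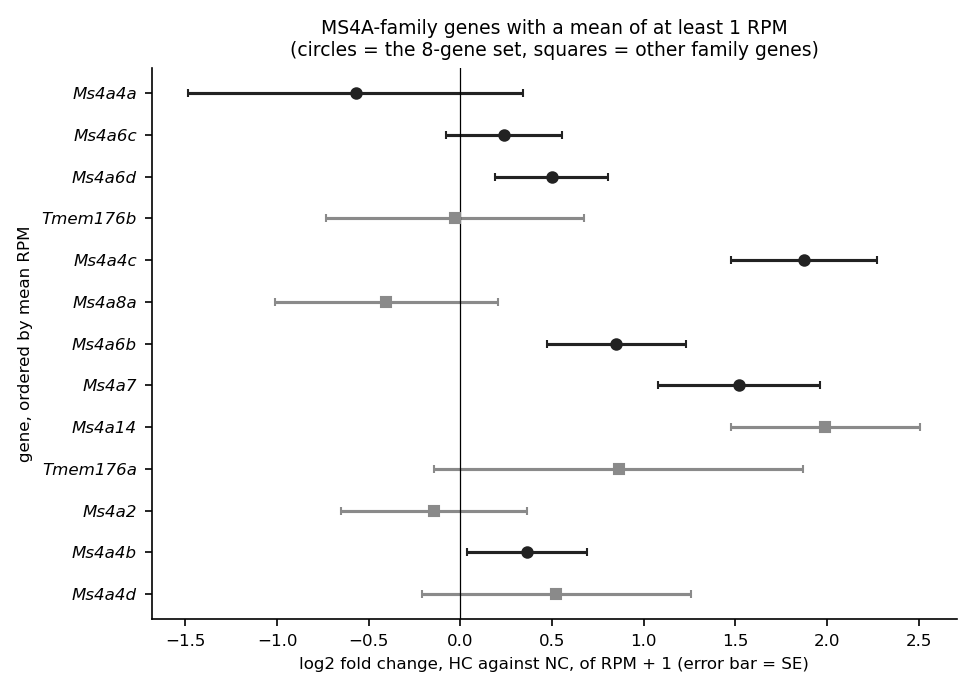
Log2 fold change of RPM + 1 in HC against NC (x axis, error bar SE) for the 13 family genes averaging 1 RPM or more, ordered by mean RPM, with circles for the 8-gene set and squares for other family genes. Ms4a14 (1.99), Ms4a4c (1.88) and Ms4a7 (1.52) lie farthest to the right, and Ms4a4a has the widest of the members' error bars.

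The HC pairs differed in most family genes, in either direction. HC1 and HC2 were both above HC3 and HC4 in 6 members (Ms4a4a, Ms4a4c, Ms4a6b, Ms4a6c, Ms4a6d and Ms4a7) and in Ms4a14. The ratio of the pair means ran from 1.30 in Ms4a6c and Ms4a4c to 2.43 in Ms4a7 among these members, and was 2.53 in Ms4a14. Ms4a4b and Ms4a1 were at 0.944 and 0.345. Of the 13 family genes averaging 1 RPM or more, 7 had HC1 and HC2 above HC3 and HC4, and 4 had the reverse (Ms4a2, Ms4a4d, Tmem176a and Tmem176b, with ratios of 0.168 to 0.477). Over all genes of that level these shares were 23.6% and 44.5%.

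Since the family is known from several immune cells, each member was set beside markers of the cells the sort could hold. The 12 macrophage markers, of which Lyz2, Cd68 and Itgam were the most abundant, summed to 12297, 23450 and 35046 RPM in NC1 to NC3 and to 20132 to 25062 RPM in HC, so the groups overlapped. Of these 12, Adgre1, which encodes F4/80, was called higher (70.5 to 149 RPM in NC and 151 to 429 RPM in HC, limma adjusted p = 0.915) and none was called lower, beside 1.43% of all genes called higher. Csf1r, the receptor that macrophages depend on, was at 337 to 538 RPM in NC and 340 to 438 RPM in HC. The complement gene C1qb was at 158 RPM in NC3, at 271 and 422 RPM in HC3 and HC4, and at 619 to 1061 RPM in the remaining libraries.

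Divided by the macrophage sum of the same library, 3 members had HC above NC in all libraries, beside 0.976% of genes averaging 1 RPM or more on the same scale. Lyz2 made up 56.8% of that sum in NC2 and 83.1% in NC3, the lowest and the highest share. Per 1000 RPM of macrophage markers, Ms4a4c was at 3.93, 3.12 and 0.707 RPM in NC1 to NC3 and at 5.80 to 9.41 RPM in HC. Ms4a6b was at 1.95 to 2.75 RPM in NC and 3.38 to 5.59 RPM in HC. Ms4a6d, which overlapped before, was at 8.08 to 11.9 RPM in NC and 12.5 to 16.7 RPM in HC. Ms4a7 overlapped on this scale, at 2.92, 1.07 and 1.08 RPM in NC1 to NC3 and 2.82 to 7.46 RPM in HC, since NC1 was above HC4. Ms4a4a stayed at 230 RPM in NC3 against 47.8 to 63.0 RPM in every other library, and Ms4a6c stayed close together at 16.9 to 25.7 RPM in NC and 21.4 to 26.4 RPM in HC.

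Without Lyz2 in the sum, an alternative added after the data had been seen, the members apart were others in part. Per 1000 RPM of the 11 remaining markers, Ms4a4c was still apart, at 4.17 to 12.2 RPM in NC and 19.4 to 30.8 RPM in HC, and Ms4a7 became so, at 2.48 to 9.11 RPM and 9.45 to 19.6 RPM. These 2 members stand beside 1.31% of genes averaging 1 RPM or more. Ms4a6b overlapped, with NC3 at 11.5 RPM and HC4 at 11.3 RPM, and so did Ms4a6d, at 27.3 to 47.7 RPM in NC and 41.8 to 49.2 RPM in HC. The separation of Ms4a6b and Ms4a6d on the first scale thus needed Lyz2 in the sum.

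**Figure D3:**
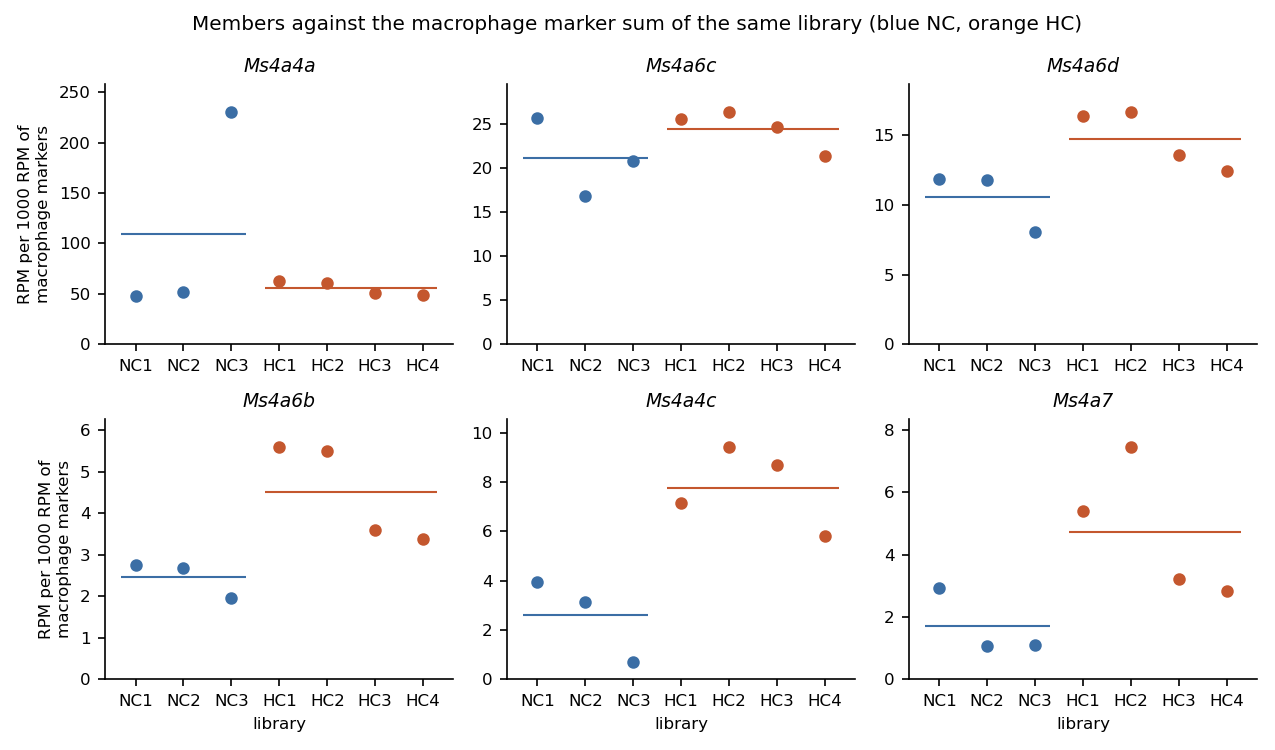
Level of 6 members per 1000 RPM of the 12 summed macrophage markers of the same library (y axis, linear from 0) in NC (blue) and HC (orange), with a line at each group mean. HC lies above NC in all libraries for Ms4a6d, Ms4a6b and Ms4a4c, Ms4a7 overlaps at 2.82 to 2.92 RPM, and Ms4a4a is at 230 RPM in NC3.

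Of the 3 monocyte markers 1 was called higher and none lower, beside 2.66% of genes averaging 1 RPM or more called higher. They (F13a1, Ccr2 and Plac8) summed to 1122 to 2310 RPM in NC and 2100 to 3639 RPM in HC, and Plac8 was called higher, at 8.88 to 71.7 RPM in NC and 92.4 to 226 RPM in HC (limma adjusted p = 0.909). Ccr2, the chemokine receptor of inflammatory monocytes, was at 63.7 RPM in NC3 and at 491 to 615 RPM in all other libraries. NC3 was also the lowest library for Plac8 and for Ms4a4c. The most abundant marker, F13a1, went the other way within NC, at 600, 1680 and 1740 RPM in NC1 to NC3. The list sum was lowest in NC1, at 1122 RPM, against 1812 RPM in NC3. What part monocyte content had in the Ms4a values was not tested.

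Of the interferon-stimulated genes, most met the unadjusted thresholds as higher in HC. The 8 of 10 in the table summed to 213, 298 and 221 RPM in NC1 to NC3 and to 1013, 1239, 574 and 414 RPM in HC1 to HC4. Of the 8, which all average 1 RPM or more, 6 were called higher, beside 2.66% of genes of that level. In 5 of them the groups were apart, beside 4.09% of genes of that level apart with HC higher. Their limma p adjusted over all genes was 0.651 to 0.915. Without 1 library at a time 4 to 6 were called, with 4 without NC1. The most abundant were Oasl2, at 53.8 to 85.6 RPM in NC and 151 to 471 RPM in HC, then Rtp4, at 58.9 to 104 RPM and 110 to 246 RPM, and Irf7, at 10.9 to 85.3 RPM and 71.7 to 343 RPM, whose groups overlapped and which was not called. The summed list ran in the order HC2, HC1, HC3, HC4 from high to low, as did Ms4a4c and Ms4a7. Not every gene of the list had this order itself. HC1 and HC2 were both above HC3 and HC4 in 23.6% of genes averaging 1 RPM or more. The share of genes with the full order was not counted, so nothing is read from it. Ms4a4a, Ms4a6b, Ms4a6c and Ms4a6d ran HC1, HC2, HC3, HC4, and Ms4a14 ran HC1, HC2, HC4, HC3. This list had been chosen with earlier results of these data known, and the part of interferon-stimulated transcription in the Ms4a values was not tested.

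**Figure D4:**
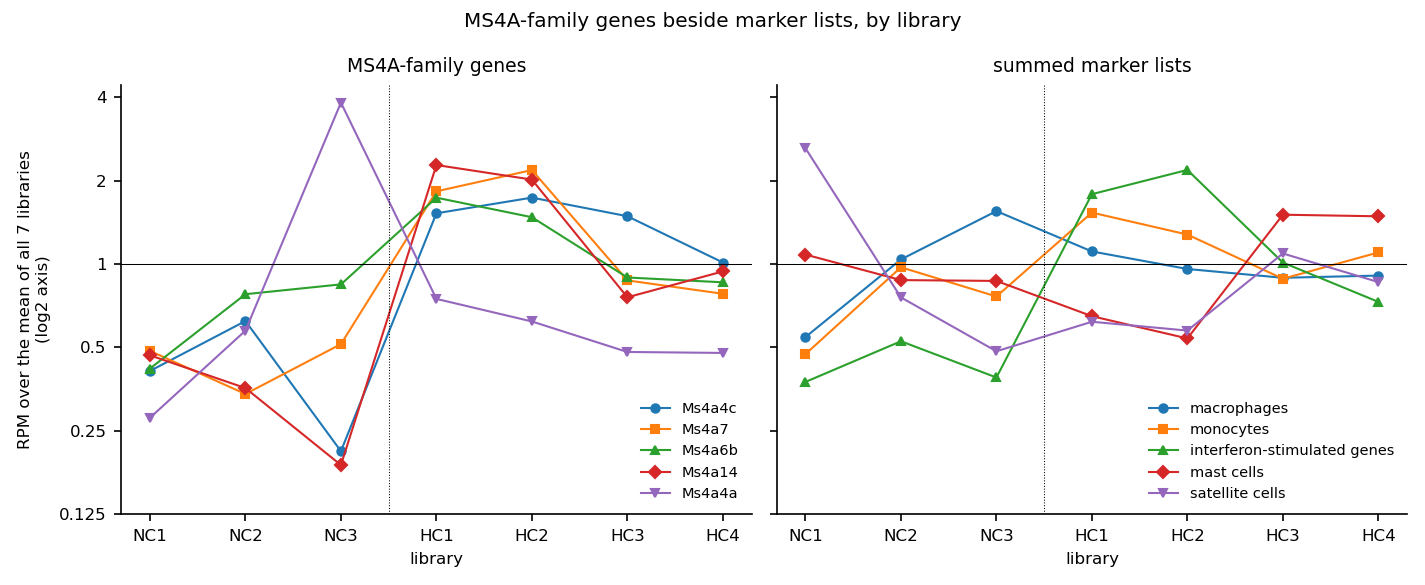
RPM of 5 family genes (left) and of 5 summed marker lists (right) in each library, divided by the mean over the 7 libraries (log2 axis), with a dotted line between NC and HC. Ms4a4c, Ms4a7, Ms4a6b and Ms4a14 and the interferon-stimulated list are higher in all HC libraries than in all NC libraries, the macrophage list is not, and Ms4a4a peaks in NC3.

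Markers of the cells in which Ms4a1, Ms4a4b and Ms4a2 are known were then examined. The 6 B cell markers used here summed to 27.1 to 38.6 RPM in NC and 41.7 to 49.7 RPM in HC, with Cd22, Cd79b and Ebf1 the most abundant, and the low sums did not overlap between the groups. Of the 6, only Cd22 was itself apart, and without it the sums were 18.6 to 31.9 RPM in NC and 15.6 to 37.0 RPM in HC, which overlapped. The 12 T and NK cell markers summed to 6.20 to 20.5 RPM and 13.1 to 19.4 RPM, with Cd2, Klrb1c and Cd4 the most abundant and Cd3e, Cd3g and Ncr1 each at 0 in some libraries. The 6 mast cell markers, led by Tpsb2, Cpa3 and Mcpt4, summed to 1004 to 1250 RPM in NC, to 749 and 622 RPM in HC1 and HC2 and to 1741 and 1718 RPM in HC3 and HC4, the same split as in Ms4a2. Limma called none of the genes of these 3 lists. What part each cell type had in the values of these family genes was not tested.

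Dendritic cell markers (Clec9a, Cd209a and Siglech the most abundant) summed to 9.71 to 88.5 RPM in NC and 10.8 to 85.7 RPM in HC. Neutrophil markers (Csf3r, S100a9 and S100a8 the most abundant, with Mpo at 0 in all libraries) summed to 58.0 to 179 RPM and 78.7 to 258 RPM. Satellite cell markers, led by Sdc4, Myog and Myod1, summed to 3022 RPM in NC1, to 875 and 559 RPM in NC2 and NC3, and to 664 to 1260 RPM in HC. Groups overlapped in all 3 lists and limma called none of their genes.

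Of the 8 partners of MS4A proteins and of the signalling they join, limma called 0. Fcer1g, the shared gamma chain of Fc receptors, was at 2134, 2379 and 8203 RPM in NC1 to NC3 and at 2550 to 2983 RPM in HC, and Tyrobp, the adaptor of TREM2, was at 2512 RPM in NC3 and 1109 to 1402 RPM elsewhere. Both were highest in NC3, as was Ms4a4a. Clec7a (Dectin-1) was at 289 to 711 RPM in NC and 171 to 533 RPM in HC, and Trem2, whose soluble form is linked to the human MS4A locus, at 51.1 to 225 RPM and 100 to 273 RPM. Of the kinases and receptors, Syk was at 63.4 to 183 RPM in NC and 153 to 206 RPM in HC, Lyn at 5.37 to 85.3 RPM and 19.1 to 82.9 RPM, Fcgr1 at 240 to 405 RPM and 375 to 526 RPM, and Cd33 at 9.78 to 53.0 RPM and 34.1 to 49.4 RPM.

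Likeness of profile was measured by Pearson's r of log2(RPM + 1) over the 7 libraries, among 8228 other genes averaging 10 RPM or more, as a description over points that share libraries. For Ms4a4a the closest 5 were Pigx (r = 0.997), Mfsd7b, Tmed9, D6Wsu163e and Sh3bgrl (r = 0.990), and 194 genes had r of at least 0.9. Without NC3, whose peak of Ms4a4a they share, their r was 0.934 to 0.977. For Ms4a6c the closest were Tmem126b (r = 0.986), Ostc, Sec11c, Chordc1 and Dclre1c (r = 0.972). For Ms4a6d they were Slc31a1 (r = 0.989), Ednrb, Ms4a6b (r = 0.970), Lgals9 and Hsd17b12 (r = 0.966). These values were lower for most genes without the 2 libraries farthest from the member's median. There r was 0.862 to 0.984 for Ms4a4a, 0.921 to 0.991 for Ms4a6c and 0.797 to 0.936 for Ms4a6d.

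Within the family, the pair Ms4a6b and Ms4a6d had the highest r over all 7 libraries (0.970, and 0.921 without the 2 libraries farthest from the median of Ms4a6b). Without NC3 this order did not hold, since Ms4a4a and Ms4a6d had r = 0.983, Ms4a7 and Ms4a14 0.981, Ms4a6b and Ms4a6c 0.978, and Ms4a6b and Ms4a6d 0.977. Ms4a6b and Ms4a6d are also the Ms4a6 genes of highest sequence identity, so reads shared between them could contribute to it, which was not tested. Ms4a7 and Ms4a14 followed over all 7 libraries (r = 0.907, and 0.689 without 2 libraries). Ms4a4a and Ms4a8a had r = 0.904, which was 0.750 without NC3 alone. It fell to -0.03 without the 2 libraries farthest from the median of Ms4a4a and so rested on those 2. Ms4a4c had r = -0.50 with its neighbour Ms4a4a, a sign that rested on NC3, since r was 0.746 without it.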

How the data were processed

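RNA of sorted Pax7-GFP+ cells was measured in 3 normocapnia and 4 hypercapnia libraries, grouped by the labels. The authors prepared amplicon libraries with the Ion AmpliSeq mouse transcriptome panel, and the deposited values are RPM, in which each library's reads on the panel are scaled to the same sum. Which aligner, build and counting settings were used was not given in the sources used here. As to tools, the submitters' processing notes name the Transcriptome Analysis Console. The members and all gene lists were chosen with earlier results of these data known.

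Log2(RPM + 1) values of all 23930 genes, unfiltered, were compared with limma 3.58.1 (R 4.3.3), and genes were called at the study's thresholds, an unadjusted p under 0.05 and a fold above 1.5. Benjamini-Hochberg adjustment ran over all genes. Fold changes on this scale understate those of low genes. Whole reads were recovered from the RPM steps for 100% of values, within 0.05 of a read, and tested with edgeR 4.0.16 and DESeq2 1.42.0 as alternatives, beside other pseudocounts, a filter at 1 RPM, median-of-ratios scaling, the replicate block and leaving out each library. The main limma fit, the filtered edgeR fit and the DESeq2 fit were tested on simulated data, and the other settings were not. The floor of 3 reads covers counting error only, and SDs and SEs are between libraries.

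Named were the 8 members, every other Ms4a gene with Tmem176a and Tmem176b, the 3 most abundant genes of each marker list with defining genes at 0, all 8 partner genes, and the 5 genes closest in profile to each of the 3 members of highest mean RPM. Adgre1, Csf1r, C1qb and Pax7 were named beyond that rule, after their values had been seen. Of the listed genes, Ly6c2, Chil3, Cd79a, Ifit3 and Isg15 were not analysed here, and 1 further monocyte and 1 further B cell gene are not reported and were left out of the sums. Open reading frames and promoters were compared by global alignment (Biopython 1.88), with identity taken over the longer sequence.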

Additional observations from a re-analysis of the deposited data

How the results depend on the processing

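Limma called 615 genes (343 higher and 272 lower in HC), 802 were called by edgeR after its filter (294 and 508), 1049 by edgeR without a filter and 1304 by DESeq2 (519 and 785). Adjusted for all genes, limma and both edgeR fits on all 7 libraries called 0 and DESeq2 29. With 1 library left out, limma called 8 genes after adjustment without NC1 and 1 without NC3. The number of members called stayed at 2 in most settings, fell to 1 with median-of-ratios scaling, where Ms4a7 lost its call at a log2 difference of 1.38, and was 3 with DESeq2 and with unfiltered edgeR, which added Ms4a4a as lower. Leaving out 1 library at a time gave 1 to 4 members called, with 1 without NC2, where Ms4a7 was lost, and 4 without NC3, where Ms4a4b and Ms4a6c were added. Without 1 library the number of other family genes called was 1 to 2 (Ms4a8a added as lower without NC1). That of all genes was 376 to 1990, with 1990 without NC1, 1205 without NC2, 385 without HC1 and 376 without HC2. Without NC3 it was 616 of 23930 genes (235 higher and 381 lower). Ms4a4c kept a difference of 1.47 to 2.23 and Ms4a7 one of 1.27 to 1.76 over the 15 alternatives. The median over the members was 0.20 to 0.68. The number of interferon-stimulated genes called higher, an analysis added after seeing the data, was 4 to 7. Leaving Lyz2 out of the macrophage sum, also added, moved the number of members apart per macrophage RPM from 3 to 2, of which Ms4a4c was shared.

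With the replicate block, 598 genes and 2 members were called. The shared numbers are no pairing, since the deviations of same-numbered libraries correlated at -0.349, 0.503 and -0.0443, and HC4, alone in its block, adds nothing there. Of the 4 changes in a member's fold change beyond its spread between libraries, none changed the direction of a called gene.

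Ms4a1 rests on few reads, and every comparison rests on 3 against 4 libraries. The cause of the differences between settings was not tested.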
